A study of Mus musculus with 12 samples.

Results

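The genes described here are 10 genes of the circadian clock, Arntl, Clock, Npas2, Per1, Per2, Per3, Cry1, Cry2, Nr1d1 and Dbp, taken by their names among the probes of one-colour microarrays of mouse kidney. They have 23 of the 56605 probes that are not controls, of which 22 passed a filter on dim signal, and 9 of the 10 genes are among the 25947 genes and transcripts tested. All 12 kidneys came from male mice on a C57/6J background, 3 in each of 4 groups. The WT sham group was wild-type mice with a sham operation and the WT IRI group was wild-type mice taken 24 h after ischemia-reperfusion injury (IRI), in which blood flow to the kidneys is stopped and then let back. The Jaml KO sham and Jaml KO IRI groups, called KO sham and KO IRI below, had the same operations in mice in which Jaml, a gene for an adhesion molecule of leukocytes, had been knocked out. Whether that knockout covers every cell type is not stated. The flow was stopped for 30 min by ligation according to the protocol and for 40 min by clamping according to the design text. According to the labels the mice lived under 12 h of light from 7 in the morning. The hours of operation and of kidney collection, and the interval between a sham operation and collection, were not found in the labels.

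The mammalian clock is a loop of transcription that runs in nearly every cell over a day. BMAL1, the product of Arntl, pairs with CLOCK or NPAS2 and binds E-box sequences to switch on the Per and Cry genes, Nr1d1 and Dbp, and the PER and CRY proteins then shut that activity off. REV-ERB alpha, the product of Nr1d1, represses Arntl, so that in kidney as in liver the Arntl transcript is high when those of Nr1d1, Dbp and the Per genes are low. The level of such a transcript in a tissue taken once depends on the hour, and the question put to the 4 groups is whether their clock genes differed.

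The promoters are shown first, because the loop acts through short sequence elements in them. In the RefSeq promoter table for GRCm38.p6, 9 of the 10 genes have at least 1 annotated start, and Per2 has no entry. The 250 bases before each start were searched on both strands for 5 elements. CACGTG is the E-box, the element that BMAL1 and its partners bind. The E-prime box, a related element, is CACGTT, and where it lies on the other strand the gene's strand reads AACGTG. The D-box, to which DBP, TEF and HLF bind, was searched as TTATGTAA. REV-ERB and ROR proteins share an element that was searched as TAGGTCA, and the cyclic AMP element was searched as TGACGTCA. Of all 32851 windows of this length in the table, 6.02% hold the E-box, 3.85% the E-prime box, 0.819% the D-box, 2.23% the ROR element and 1.55% the cyclic AMP element. The stretches below are the members' matches with 15 bases on either side, 5′ to 3′ on the strand of the gene, with the matched letters in capitals. Ciart, a repressor of the loop that is not among the 10 genes but is described with them later, is added because its window holds 3 E-boxes.
Per1: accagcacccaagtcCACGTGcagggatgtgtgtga
Per3: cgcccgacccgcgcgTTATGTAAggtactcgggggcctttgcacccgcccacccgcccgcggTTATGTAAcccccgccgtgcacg
Cry1: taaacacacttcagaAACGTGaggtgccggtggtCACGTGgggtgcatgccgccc
Cry2: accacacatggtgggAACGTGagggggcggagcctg
Nr1d1: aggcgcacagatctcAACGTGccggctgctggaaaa
Ciart: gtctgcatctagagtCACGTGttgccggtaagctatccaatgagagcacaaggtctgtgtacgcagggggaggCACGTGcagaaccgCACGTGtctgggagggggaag

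On GRCm38.p6 these are chr11:69098768-69098803 on the plus strand for Per1, chr4:151044801-151044885 on the minus strand for Per3, chr10:85185094-85185148 on the minus strand for Cry1, chr2:92434215-92434250 on the minus strand for Cry2, chr11:98775385-98775420 on the minus strand for Nr1d1 and chr3:95882252-95882359 on the minus strand for Ciart. Per3 held 2 D-boxes, at 205 and 158 bases before its start, and no E-box. Cry1 held an E-prime box 79 and an E-box 60 bases before its start. The single matches of Per1, Cry2 and Nr1d1 lay 166, 166 and 28 bases before their starts. None of these letters occurred in the windows of Arntl (2 starts), Clock (3 starts), Npas2, Dbp or the other start of Per1, which says only that they are not in those 250 bases. Other further clock genes were searched too. Tef held 1 E-box before each of its 2 starts, Bhlhe41 held 1 E-box, Hlf 1 cyclic AMP element and Nfil3 1 ROR element. Nr1d2 and Usp2 held no match. A match is a string of letters and not a measured binding site.

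**Figure D1:**
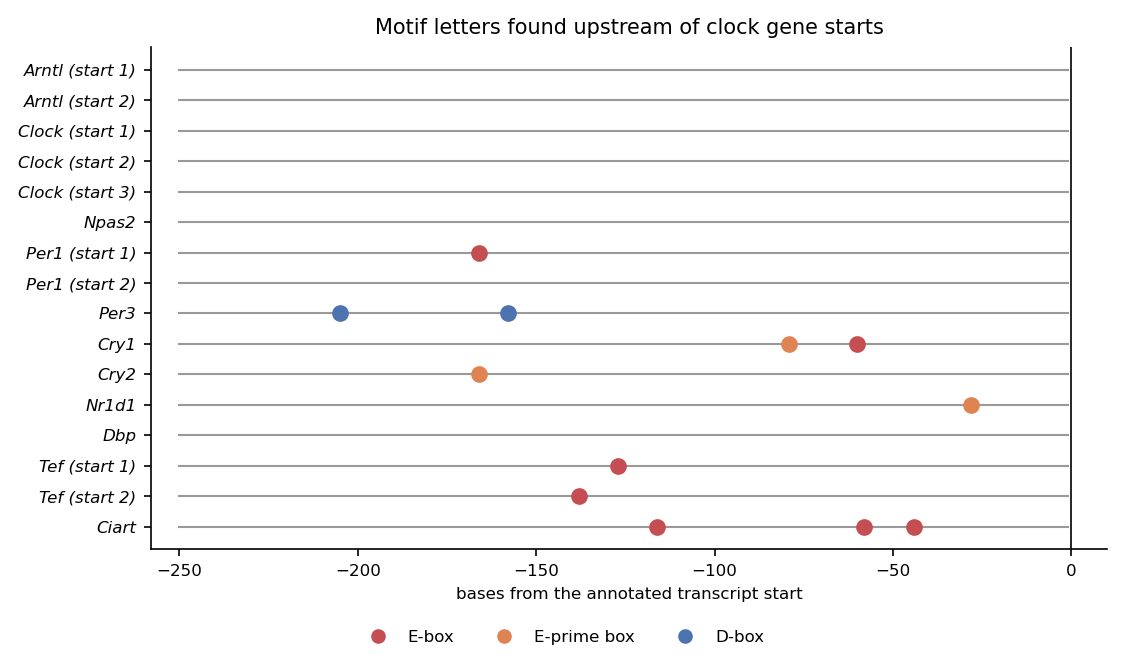
Positions of the searched letters in the 250 bases before each annotated start, for the clock genes with an entry in the table and for Tef and Ciart; each line is 1 start, the x axis is the distance from that start in bases, and each dot is a match. Per3 holds 2 D-boxes and Ciart 3 E-boxes, and the lines of Arntl, Clock, Npas2 and Dbp are empty.

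Levels are log2 processed signal minus the 75th percentile of the same array, so that 0 is the brightness of a probe at that percentile and a difference of 1 is a doubling. Levels of different genes come from different probes and cannot be set against each other. Between 62.9% and 68.1% of probes were well above background on an array, and no probe was saturated. Arrays of a group correlated at 0.968 to 0.995, with the lowest value between WT IRI replicates 1 and 2. All 6 WT arrays were on 1 slide and all 6 KO arrays on another, so a difference between genotypes and a difference between slides cannot be told apart, while IRI was set against sham within a slide. Jaml read -0.26, -0.26 and -0.44 in WT sham and -3.54, -2.59 and -3.18 in KO sham, a log2 difference of -2.79 ± 0.56 (SE, limma adjusted p = 0.0152). After IRI it read 0.55, -1.80 and -1.64 in WT and -1.89, -2.70 and -3.0 in KO, a difference of -1.57 ± 0.56 that did not pass (adjusted p = 0.153), although the groups did not overlap. Whether its probe lies in the deleted part is not stated. The injury marker Lcn2 was higher after IRI by 5.27 ± 0.41 in WT and 5.64 ± 0.41 in KO (limma adjusted p = 0.000303 for WT and 0.000354 for KO), and Havcr1 by 4.73 ± 1.15 and 4.54 ± 1.15 (adjusted p = 0.0273 and 0.0458). All 6 proximal tubule markers were well above background on all 12 arrays.

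In each of the 4 comparisons between groups, 0 of the 9 clock genes passed limma's test at an adjusted p of 0.05. The KO sham kidneys read higher for Dbp, Per3, Cry2 and Nr1d1 and lower for Arntl and Per1 than the WT sham kidneys, without overlap. Groups did not overlap for 42.7% of all genes in that comparison, in which genotype and slide coincide. The KO IRI kidneys read higher than the KO sham kidneys for Arntl, Clock and Cry1 and lower for Per3, Cry2, Nr1d1 and Dbp. These groups did not overlap either, as for 35.7% of all genes. The difference of Arntl there, 4.04-fold, was the widest among the 9 tested genes in the 4 comparisons. The WT sham kidneys did not form 1 level, since replicate 3 stood with the IRI kidneys for Arntl and Dbp.

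Arntl (probe on chr7:120456978-120457037, mm9, plus strand, from base 2245 of its transcript) encodes BMAL1, the partner that all the E-box complexes share. Its level was -1.67, -1.95 and -0.24 in WT sham, 0.77, -1.25 and -0.85 in WT IRI, -2.71, -3.03 and -2.86 in KO sham and -0.70, -1.22 and -0.62 in KO IRI. The 3 KO sham kidneys were the lowest of all 12, and their SD of 0.16 was below that of WT sham (0.92) and WT IRI (1.07). KO IRI lay above KO sham on every array, by 2.01 ± 0.53 on the log2 scale (4.04-fold, 95% interval 0.83 to 3.20), with an adjusted p of 0.0533. KO sham lay below WT sham on every array, by a log2 difference of -1.58 ± 0.53 (adjusted p = 0.0969). In WT the groups overlapped, and the IRI difference was 0.85 ± 0.53 (interval -0.34 to 2.03, adjusted p = 0.324). The interaction, which is the IRI difference of KO minus that of WT, was 1.17 ± 0.75 (adjusted p = 0.613). After IRI KO and WT differed by -0.41 ± 0.53 (adjusted p = 0.675). Arntl has 2 further kept probes, both dim, and they gave KO sham against WT sham as -2.33 and -1.98 and KO IRI against KO sham as 2.43 and 2.26. On KO sham arrays they were well above background on 0 and 1 of 3, so these values rest in part on signal near background.

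Clock (chr5:76639992-76640051, mm9, minus strand) encodes the usual partner of BMAL1 and cycles weakly in most tissues. It read 1.34, 1.48 and 1.63 in WT sham, 1.59, 1.56 and 1.94 in WT IRI, 1.74, 1.48 and 1.68 in KO sham and 2.15, 1.90 and 1.85 in KO IRI. The whole range over 12 kidneys was thus narrower than the gap between KO sham and KO IRI for Arntl. KO IRI lay above KO sham on every array by 0.33 ± 0.15 (adjusted p = 0.237), and the other differences were 0.15 ± 0.15 for KO sham against WT sham, 0.22 ± 0.15 for the IRI difference in WT and 0.27 ± 0.15 for KO IRI against WT IRI. Its 4 kept probes ran from -0.08 to 0.46 for KO sham against WT sham and from -0.75 to 0.27 for KO IRI against WT IRI, so neither sign was shared by all of them. The probe at 0.46 was dim, well above background on 4 of 12 arrays and on 0 arrays of either sham group. Npas2 (chr1:39418941-39419000, mm9, plus strand), the partner that can stand in for CLOCK, was well above background on only 2 of 12 arrays, WT IRI replicate 1 and KO IRI replicate 1, and was not tested. Its readings were -8.11, -8.45 and -6.30 in WT sham, -3.59, -6.53 and -7.43 in WT IRI, -7.68, -7.19 and -7.03 in KO sham and -5.86, -6.98 and -6.36 in KO IRI.

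**Figure D2:**
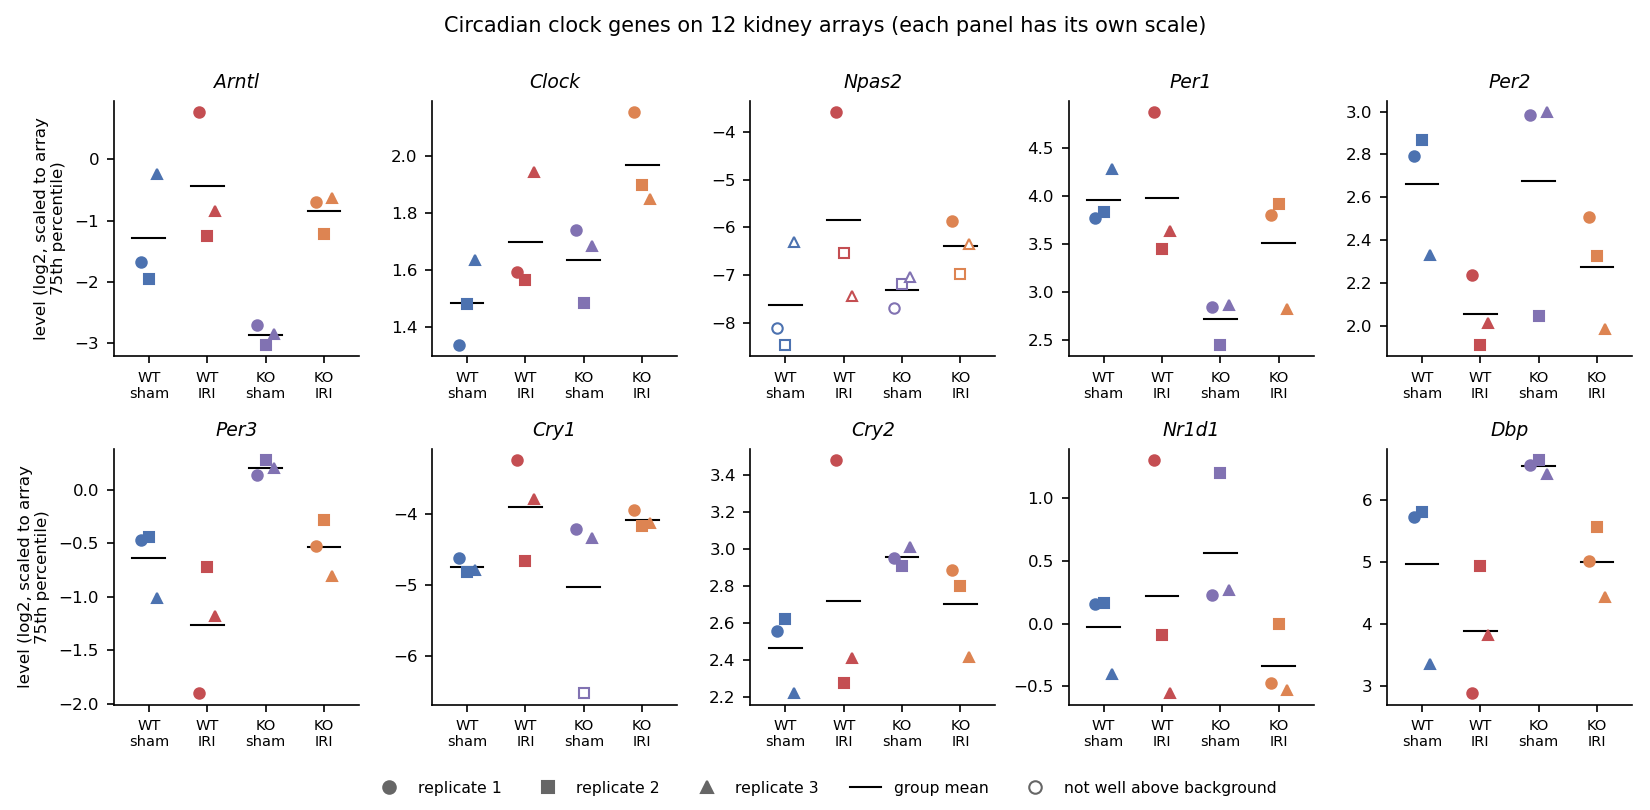
Level of each clock gene (y axis, log2 scaled to the 75th percentile of the array, own scale per panel) in the 4 groups (x axis), with 1 point per kidney, shapes for replicates, bars for group means and open points where the probe was not well above background. In Arntl the 3 KO sham points are the lowest and in Per3 and Dbp the highest, and WT sham replicate 3 lies apart from replicates 1 and 2 in Arntl and Dbp.

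Dbp (chr7:52965265-52965324, mm9, plus strand) encodes a PAR bZIP factor that carries the rhythm to output genes through D-boxes, and its transcript has one of the widest daily swings in peripheral tissue. It read 5.74, 5.81 and 3.36 in WT sham, 2.89, 4.94 and 3.82 in WT IRI, 6.57, 6.64 and 6.43 in KO sham and 5.02, 5.57 and 4.44 in KO IRI. The 3 KO sham kidneys were the highest of the 12 and lay close together (SD 0.11), where the SD was 1.39 in WT sham. KO sham lay above WT sham on every array by 1.58 ± 0.67 (2.98-fold, adjusted p = 0.177), and KO IRI below KO sham on every array at -1.54 ± 0.67 (2.90-fold, adjusted p = 0.220). The difference in WT was -1.09 ± 0.67, with overlapping groups (adjusted p = 0.312), and KO IRI against WT IRI gave 1.12 ± 0.67 (adjusted p = 0.344). The other probe of Dbp gave 1.53, -1.62, -1.35 and 1.26 in these 4 comparisons, in that order.

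Per1, Per2 and Per3 encode the PERIOD proteins of the repressor complex, and Per1 is also known as a gene that glucocorticoid and cyclic AMP signals induce quickly. Per3 (chr4:150378473-150378532, mm9, minus strand), whose promoter stretch with 2 D-boxes is printed above, read -0.47, -0.44 and -1.01 in WT sham, -1.90, -0.72 and -1.18 in WT IRI, 0.13, 0.27 and 0.20 in KO sham and -0.53, -0.29 and -0.80 in KO IRI. As for Dbp, the KO sham kidneys were the 3 highest. Per3 was above WT sham in KO sham by 0.84 ± 0.28 (adjusted p = 0.0896), and KO IRI against KO sham gave -0.74 ± 0.28 (adjusted p = 0.156), both without overlap. In WT the IRI difference was -0.62 ± 0.28 (adjusted p = 0.165) and after IRI KO exceeded WT by 0.73 ± 0.28 (adjusted p = 0.176), with overlapping groups. All 3 probes of Per3 agreed for KO sham against WT sham (0.71 to 0.90) and for KO IRI against KO sham (-1.22 to -0.74), but for KO IRI against WT IRI they ran from -0.24 to 0.73.

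Per1 (chr11:68923364-68923423, mm9, plus strand) read low in KO sham, where Per3 read high. Its levels were 3.76, 3.83 and 4.27 in WT sham, 4.87, 3.44 and 3.63 in WT IRI, 2.84, 2.45 and 2.86 in KO sham and 3.80, 3.92 and 2.83 in KO IRI. KO sham was below WT sham on every array at -1.24 ± 0.39 (2.36-fold, adjusted p = 0.0775). KO IRI against KO sham gave 0.79 ± 0.39 (adjusted p = 0.276), KO IRI against WT IRI -0.47 ± 0.39, and WT IRI against WT sham 0.02 ± 0.39 with an interval of -0.84 to 0.88. The difference between the sham groups rests on 1 probe, because the other, well above background on 6 of 12 arrays, gave 0.06 there. Per2 (chr1:93312595-93312654, mm9, minus strand) read 2.79, 2.87 and 2.33 in WT sham, 2.24, 1.91 and 2.01 in WT IRI, 2.98, 2.05 and 3.00 in KO sham and 2.51, 2.33 and 1.99 in KO IRI. WT IRI lay below WT sham on every array, at -0.61 ± 0.26 (adjusted p = 0.159), and KO IRI overlapped with KO sham at -0.40 ± 0.26. Between the sham groups Per2 differed by 0.01 ± 0.26 (interval -0.58 to 0.60). The other probe of Per2, dimmer but well above background on all 12 arrays, gave 0.38 there. For KO IRI against WT IRI it gave 0.89, where the probe used gave 0.22. Its IRI differences were -0.73 in WT and -0.22 in KO.

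Cry1 and Cry2 encode the cryptochromes, the strongest repressors of BMAL1 and CLOCK. Cry1 (chr10:84594731-84594790, mm9, minus strand) read -4.62, -4.81 and -4.78 in WT sham, -3.24, -4.66 and -3.77 in WT IRI, -4.21, -6.52 and -4.33 in KO sham and -3.94, -4.16 and -4.12 in KO IRI, where KO sham replicate 2 was not well above background. Its IRI differences were 0.85 ± 0.55 in WT and 0.95 ± 0.55 in KO (adjusted p = 0.338 and 0.358). Without KO sham replicate 2 the value in KO was 0.20 and that of KO sham against WT sham went from -0.28 to 0.47. On all arrays the other probe of Cry1 gave IRI differences of 0.64 in WT and 0.54 in KO, and -0.22 for KO sham against WT sham. Cry2 (chr2:92243807-92243866, mm9, minus strand) read 2.55, 2.62 and 2.22 in WT sham, 3.48, 2.27 and 2.41 in WT IRI, 2.95, 2.91 and 3.01 in KO sham and 2.89, 2.80 and 2.41 in KO IRI. The KO sham arrays lay above all WT sham arrays by 0.49 ± 0.28 (adjusted p = 0.325) and above all KO IRI arrays, with KO IRI against KO sham at -0.26 ± 0.28 (adjusted p = 0.665). The 3 kept probes of Cry2, each well above background on all 12 arrays, ran from 0.49 to 0.71 for KO sham against WT sham. They ran from -0.83 to -0.26 for KO IRI against KO sham, where the probe used gave the smallest size. For KO IRI against WT IRI they ran from -0.53 to -0.02. Nr1d1 (minus strand of chromosome 11, with its 60 probe bases spread over chr11:98630526-98631028 on mm9) encodes REV-ERB alpha, the repressor of Arntl. It read 0.16, 0.16 and -0.40 in WT sham, 1.30, -0.09 and -0.55 in WT IRI, 0.23, 1.20 and 0.27 in KO sham and -0.47, -0.01 and -0.52 in KO IRI. KO sham exceeded both WT sham (0.59 ± 0.44, adjusted p = 0.458) and KO IRI on every array, the latter with KO IRI against KO sham at -0.90 ± 0.44 (adjusted p = 0.276). WT IRI replicate 1 and KO sham replicate 2 were its highest readings.

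**Figure D3:**
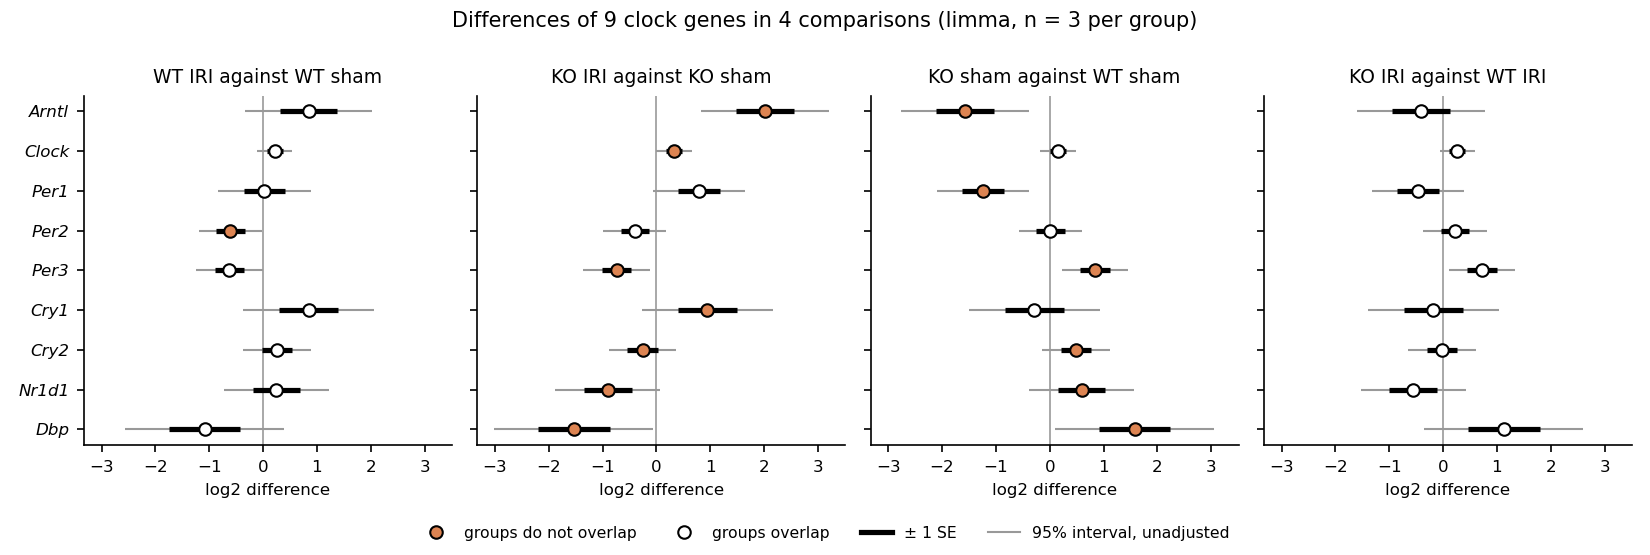
Log2 differences (x axis) of the 9 tested clock genes (y axis) in 4 comparisons; thick bars are ± 1 SE, thin bars unadjusted 95% intervals, and filled points mark genes whose groups of 3 arrays do not overlap. KO IRI against KO sham has 7 filled points, KO sham against WT sham 6, WT IRI against WT sham 1 and KO IRI against WT IRI none.

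Counted over the 9 tested genes, limma called 0 for WT IRI against WT sham, where 12.0% of all genes were called, and 0 for KO IRI against KO sham, where 6.16% were. For KO sham against WT sham it called 0 against 8.85% of all genes, for KO IRI against WT IRI 0 against 1.93%, and for the interaction 0 against 0.0694%. At an unadjusted p under 0.05 the counts were 2, 4, 4, 1 and 0 of 9 in these comparisons, beside 29.1%, 21.0%, 24.3%, 21.7% and 9.77% of all genes. The shares called over all genes are low enough for a count of 0 among 9 genes to lie near the background. Groups did not overlap for 1 of 9 genes in WT IRI against WT sham (32.3% of all genes), for 7 of 9 in KO IRI against KO sham (35.7%), for 6 of 9 in KO sham against WT sham (42.7%) and for 0 of 9 in KO IRI against WT IRI (21.8%). The 7 in KO were Arntl, Clock and Cry1 higher (13.9% of all genes) and Per3, Cry2, Nr1d1 and Dbp lower (21.8%). In the sham comparison Per3, Cry2, Nr1d1 and Dbp were higher (30.6% of all genes) and Arntl and Per1 lower (12.2%) in KO. These 2 comparisons share the KO sham arrays, so that a low or high KO sham group gives opposite signs in them. The median size of the difference, without regard to sign, was 0.79 for the clock genes and 0.25 for all genes in KO IRI against KO sham, 0.59 and 0.26 in KO sham against WT sham, 0.61 and 0.29 in WT IRI against WT sham and 0.41 and 0.27 in KO IRI against WT IRI. The median over all genes was 0.12 in KO sham against WT sham and between -0.08 and 0.04 in the other comparisons between groups.

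The test pools the spread of all 4 groups, and the WT groups had the wider spread for Arntl and Dbp. In a fit to the 6 KO arrays alone, all on 1 slide, Arntl rose after IRI (2.01 ± 0.19, adjusted p = 0.00553) and Dbp (-1.54 ± 0.28, adjusted p = 0.0293) and Per3 (-0.74 ± 0.15, adjusted p = 0.0381) fell. In a fit to the 6 WT arrays alone Arntl (0.85 ± 0.67, adjusted p = 0.505), Dbp (-1.09 ± 0.82, adjusted p = 0.485) and Per3 (-0.62 ± 0.34, adjusted p = 0.341) did not pass. Over all 25947 genes the fit to the KO arrays called 2442 and the fit to the WT arrays 417. Arntl, Dbp and Per3 did not pass in the interaction. Over 22 alternative settings Arntl passed in KO IRI against KO sham in 10, including those that leave out WT sham replicate 3 or either of WT IRI replicates 1 and 2. Those settings called 1604, 3250 and 1848 of all genes, beside 1598 in the fit used. Between the sham groups Arntl, Per1 and Per3 each passed in 4 of 22, all 3 of them without WT IRI replicate 1 (adjusted p = 0.0276, 0.0196 and 0.0221). Leaving out that array raised the calls over all genes from 2297 to 4405. It left the log2 differences of the 3 genes as they were and changed only their errors.

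In WT the replicates of a group differed widely in several clock genes. WT sham replicate 3 read 2.41 below the mean of the other 2 for Dbp, a gap that only 0.536% of all genes reach on that array, and 1.57 above it for Arntl (2.39% of genes). On WT IRI replicate 1, 5 of the 9 genes lay more than 1 from the mean of the other 2, Arntl, Per1, Cry2 and Nr1d1 above and Dbp below, on an array where 18.5% of all genes did so. KO sham replicate 2 was the only array on which Cry1 was not well above background. On no other array but WT IRI replicate 2, with 3, did more than 2 of the 9 clock genes lie more than 1 out. Without WT sham replicate 3 the difference of KO sham against WT sham went from 1.58 to 0.77 for Dbp and from -1.58 to -1.05 for Arntl, while Per3 went from 0.84 to 0.65 and Per1 from -1.24 to -1.08. The IRI differences in WT moved more. Without WT IRI replicate 1 Arntl went from 0.85 to 0.24, Dbp from -1.09 to -0.59, Per3 from -0.62 to -0.31 and Cry1 from 0.85 to 0.52. Without WT sham replicate 3 Arntl was 1.37 and Dbp -1.89.

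A clock contrast summarised both arms on each array as the mean of Per1, Per2, Per3, Nr1d1 and Dbp minus the mean of Arntl and Clock, each gene centred on its mean over 12 arrays. It was 0.61, 0.73 and -0.94 in WT sham, -1.25, -0.21 and -0.96 in WT IRI, 1.08, 1.34 and 1.18 in KO sham and -0.61, 0.01 and -0.98 in KO IRI. The 3 KO sham kidneys were the highest of 12 and WT sham replicates 2 and 1 came next, while WT sham replicate 3 stood ninth, among the IRI kidneys. The group mean was highest in KO sham (1.20 ± 0.13, SD, n = 3), followed by WT sham (0.13 ± 0.93), KO IRI (-0.53 ± 0.50) and WT IRI (-0.81 ± 0.54). The contrast is given as a description, without a test. The genes averaged in it did not all move alike. In KO sham against WT sham Dbp, Per3 and Nr1d1 differed by 1.58, 0.84 and 0.59, but Per2 by 0.01 and Per1 by -1.24. Arntl differed there by -1.58 and Clock by 0.15. Both IRI groups overlapped with each other and with WT sham, and KO sham overlapped with no other group. Without WT sham replicate 3 the difference of KO sham from WT sham went from 1.07 to 0.53, and that of WT IRI from WT sham from -0.94 to -1.48.

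**Figure D4:**
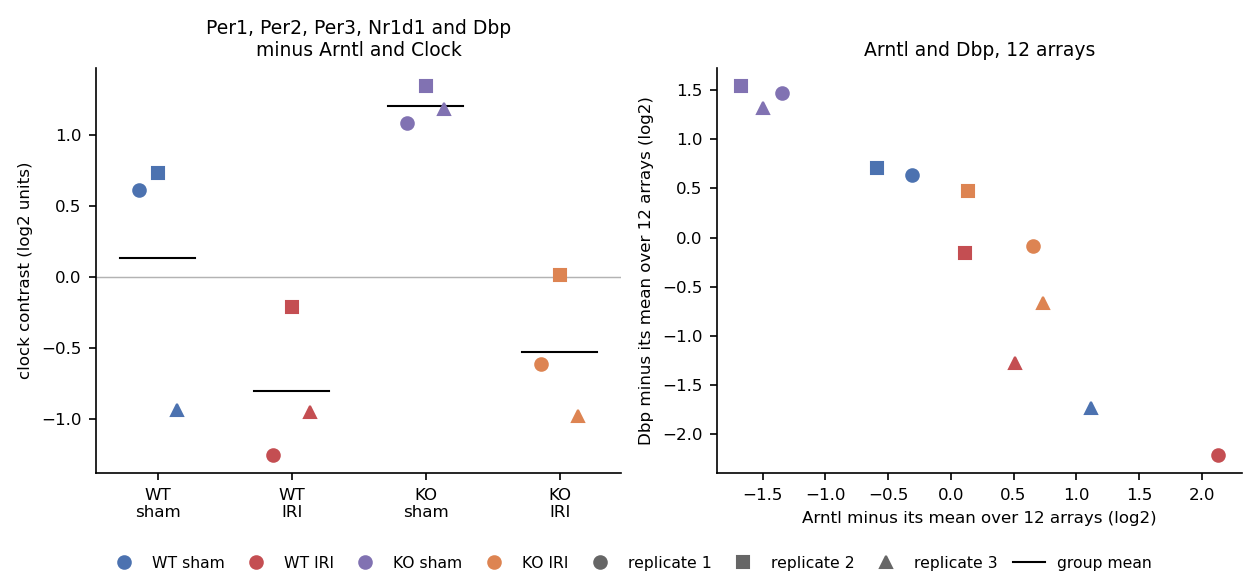
Left, the clock contrast (y axis, log2 units) of each kidney by group with group means as bars; right, Dbp against Arntl, each as log2 level minus its mean over 12 arrays, with colours for groups and shapes for replicates. The 3 KO sham kidneys are the highest in the contrast and lie at the low-Arntl, high-Dbp end, WT IRI replicate 1 lies at the other end, and WT sham replicate 3 lies among the IRI kidneys.

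Arntl and Dbp ran in opposite directions over the 12 arrays, with a Pearson r of -0.946 and a Spearman rho of -0.944. The r was -0.951 within the 6 WT arrays and -0.966 within the 6 KO arrays, -0.927 for deviations from the group means, and -0.908 over 10 arrays without KO sham replicate 2 and WT IRI replicate 1, those farthest from the median of Arntl. Per3 followed Dbp (r = 0.957, rho = 0.965, and 0.904 for deviations) and opposed Arntl (r = -0.938, rho = -0.895, and -0.949 for deviations). Per1 had an r of 0.792 with Arntl and -0.720 with Dbp. Nr1d1 had an r of -0.199 with Arntl, 0.269 for deviations, and Clock had 0.279. Arntl with Dbp, Arntl with Per3 and Dbp with Per3 had the largest r in size of the 36 pairs of tested clock genes. The points are 12 kidneys on 2 slides that share the group differences, and the values are a description.

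Among 14566 genes with an ordinary symbol that were well above background on all 12 arrays, the 5 with the highest r to Arntl were Fga (0.983), Fgb (0.979), Nrg1 (0.970), Jun (0.970) and Fgg (0.964), and the 5 with the lowest were Sv2a (-0.987), Myom3 (-0.965), Cit (-0.964), Gss (-0.959) and Cpne4 (-0.957). For Dbp the highest were Marchf10 (0.972), Glcci1 (0.969), Cct6b (0.963), Podn (0.962) and Unkl (0.959) and the lowest Tnfrsf1a (-0.980), Fgb (-0.979), Spp1 (-0.974), Enc1 (-0.969) and Igf2bp2 (-0.966). Per3 ranked 6 and Tef 28 from the top of the list for Dbp. Of the clock genes Nfil3 had the highest r to Arntl (0.885), at rank 145.

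Of 19 further genes of the core clock and its direct output, 18 were tested (Rorb was not). In the comparison of WT IRI with WT sham limma called 3 lower (5.90% of all genes) and 0 higher (6.08%), for KO IRI against KO sham 2 lower (4.05%) and 0 higher, for KO sham against WT sham 1 higher (5.12%) and 1 lower (3.73%), and for KO IRI against WT IRI and the interaction 0. At an unadjusted p under 0.05 those counts were 4, 6, 5, 7 and 2 of 18, beside 29.1%, 21.0%, 24.3%, 21.7% and 9.77% of all genes. Without WT IRI replicate 1 or 2 the count for KO IRI against WT IRI was 1, and without WT IRI replicate 1 and WT sham replicate 3 it was 2. Over all genes these settings called 636, 971 and 826, beside 501 in the fit used. The 3 that fell in WT were Usp2, a deubiquitinase that acts on clock proteins, Tef, the D-box factor next to DBP, and Nr1d2, the gene for REV-ERB beta. Usp2 read 4.11, 4.22 and 3.91 in WT sham and 2.85, 3.05 and 2.74 in WT IRI, a log2 difference of -1.20 ± 0.20 (adjusted p = 0.0081) that passed in all 22 alternative settings. In KO it read 4.29, 3.79 and 4.21 after sham and 3.10, 3.77 and 3.16 after IRI, again without overlap (-0.75 ± 0.20, adjusted p = 0.0573), and the interaction was 0.45 ± 0.29 (adjusted p = 0.613). Tef fell by 0.63 ± 0.17 in WT (adjusted p = 0.0346), from 6.06, 6.22 and 5.64 to 5.22, 5.59 and 5.20. Its difference in KO was -0.56 ± 0.17 (adjusted p = 0.0752). Nr1d2 fell by 0.73 ± 0.21 in WT (adjusted p = 0.0474), from 3.59, 3.43 and 3.01 to 2.88, 2.70 and 2.27, with -0.78 ± 0.21 in KO (adjusted p = 0.0556). The call of Tef was lost when array 1 or 2 of WT sham, 1 or 3 of WT IRI or 1 or 3 of KO sham was left out. That of Nr1d2 was lost when array 1 or 2 of WT sham, 2 or 3 of WT IRI, 1 or 3 of KO IRI or any of KO sham was left out. Both calls were lost as well with no filter on dim probes and in the fit to the 6 WT arrays alone, where the adjusted p was 0.164 for Tef and 0.159 for Nr1d2.

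Ciart, which encodes a repressor of BMAL1 and CLOCK, fell after IRI in KO by 2.09 ± 0.54 (adjusted p = 0.0473). Its level was -1.32, -1.29 and -3.17 in WT sham, -1.84, -2.72 and -3.43 in WT IRI, -0.64, -0.76 and -0.66 in KO sham and -2.87, -2.15 and -3.31 in KO IRI. As with Dbp and Per3 the KO sham kidneys were the 3 highest and close together, and WT sham replicate 3 lay among the IRI kidneys. The call was lost in 12 of 22 alternative settings, among them those that leave out array 1 or 2 of WT sham, 2 of WT IRI or any of the KO arrays. Fbxl21, an F-box protein that controls cryptochrome stability, read -3.45, -3.46 and -3.66 in WT sham, -3.87, -3.69 and -3.79 in WT IRI, -2.38, -2.22 and -2.40 in KO sham and -3.23, -2.93 and -3.78 in KO IRI. It was higher in KO sham than in WT sham by 1.19 ± 0.19 (adjusted p = 0.00662), a call kept in all 22 settings, and fell after IRI in KO by 0.98 ± 0.19 (adjusted p = 0.0166), a call lost without any 1 KO sham array.

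Nfil3 encodes E4BP4, which competes with DBP for D-boxes. It read 1.72, 1.81 and 3.10 in WT sham, 3.63, 1.15 and 1.49 in WT IRI, 0.10, -1.26 and 0.02 in KO sham and 1.38, 0.84 and 1.62 in KO IRI. KO sham was lower than WT sham by a log2 difference of -2.59 ± 0.65 (6.01-fold, adjusted p = 0.0364), the reverse of Dbp in the same kidneys. That call was lost when any array of WT sham or KO sham, or array 1 or 3 of KO IRI, was left out or dim probes were not filtered, and the difference ran from -2.83 to -1.99 over 22 settings. The D-box factor Hlf read 1.40, 1.54 and 0.85 in WT sham, -1.25, 0.82 and 0.98 in WT IRI, 2.11, 1.82 and 1.97 in KO sham and 1.51, 1.85 and 1.56 in KO IRI, and it did not pass in any of these comparisons (adjusted p from 0.137 to 0.761). Bhlhe40, an E-box repressor, differed by -1.41 ± 0.35 between KO IRI and WT IRI without overlap (adjusted p = 0.0704), with WT IRI replicate 1 at 3.75 beside 2.15 and 2.42 in its group. Without that array Bhlhe40 passed, at -0.92, and without WT IRI replicate 2, at -1.72. Those fits called 636 and 971 of all genes, beside 501 in the fit used. Its paralog Bhlhe41 had differences of at most 0.26 in size, none of which passed.

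**Figure D5:**
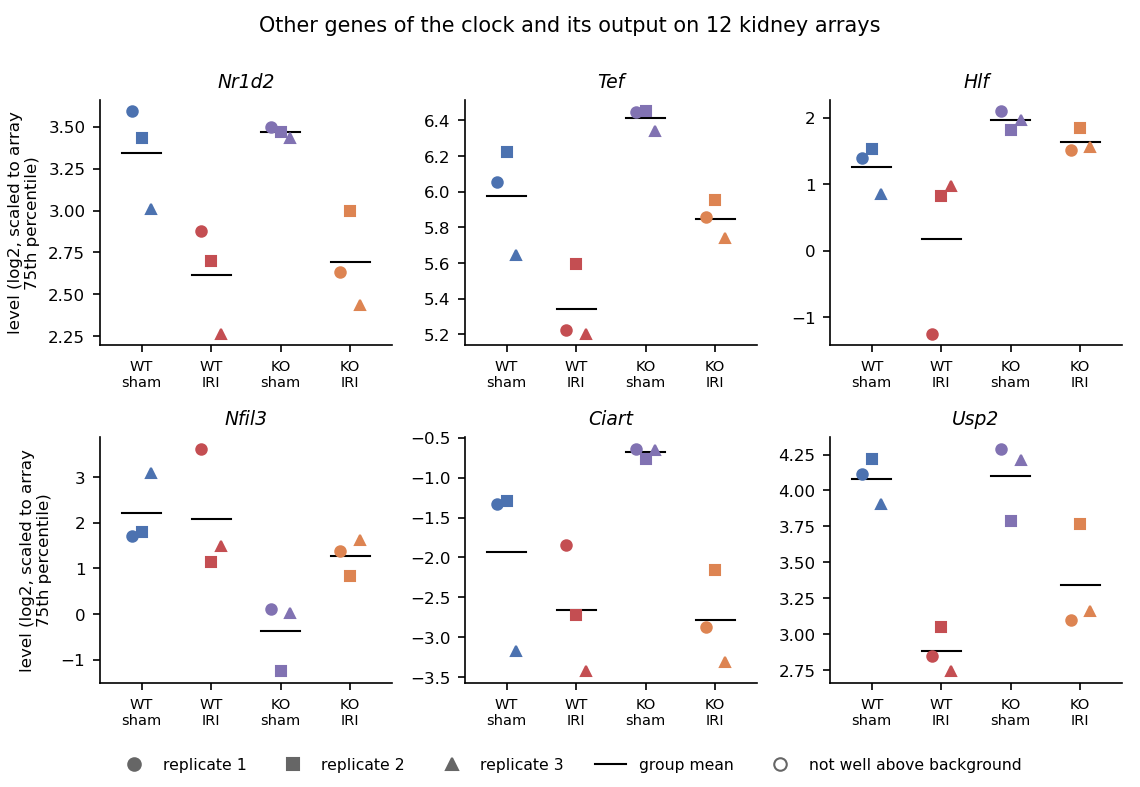
Level (y axis, log2 scaled to the 75th percentile of the array) of 6 further clock genes in the 4 groups (x axis), with 1 point per kidney, shapes for replicates and bars for group means. Usp2, Tef and Nr1d2 lie lower after IRI in WT and KO without overlap, Ciart is highest in the 3 KO sham kidneys, and Nfil3 is lowest there.

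Of 14 genes known to cycle in kidney, among them transporters of the distal nephron, 2 passed in WT IRI against WT sham, a share near the 12.0% of all genes called there, and 0 in the other comparisons. At an unadjusted p under 0.05 there were 5 of 14 in WT IRI against WT sham (29.1% of all genes), 4 in KO IRI against KO sham (21.0%), 2 in KO sham against WT sham (24.3%), 3 in KO IRI against WT IRI (21.7%) and 2 in the interaction (9.77%). Cldn4, a tight junction claudin, rose by 1.82 ± 0.42 (adjusted p = 0.0235), and Wnk1, a kinase that controls salt transport, fell by 0.70 ± 0.15 (adjusted p = 0.0196). Cirbp and Rbm3 encode cold-inducible RNA-binding proteins, whose levels change with body temperature and, through it, with the time of day. Cirbp read 2.31, 2.22 and 1.77 in WT sham, 5.67, 2.47 and 3.41 in WT IRI, 3.04, 3.77 and 2.98 in KO sham and 3.31, 3.75 and 2.90 in KO IRI. It did not pass in WT IRI against WT sham (1.75 ± 0.65, adjusted p = 0.105) or in KO IRI against KO sham (0.06 ± 0.65). The WT value was 0.84 without WT IRI replicate 1. All KO sham arrays read above the WT sham arrays for Cirbp, by 1.16 ± 0.65 (adjusted p = 0.312). The IRI difference of Rbm3 was 1.03 ± 0.34 in WT, with an adjusted p of 0.0786, the KO arrays gave 0.83 ± 0.34 (adjusted p = 0.203), and its difference between the sham groups was 0.03 ± 0.34.

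Other values also differed between and within the groups, and their relation to the clock genes was not tested. In whole kidney RNA, fewer cells of a type and less RNA per cell cannot be told apart. The mean centred level of 6 T and NK cell markers, of which limma called 4 lower and 0 higher in KO sham than in WT sham (3.73% of all genes were called lower), was 3.57, 3.56 and 0.68 in WT sham and -0.63 to 0.47 in KO sham, with -1.17 to -0.58 in WT IRI and -1.79 to -1.38 in KO IRI. Each of these markers was well above background on at least 2 arrays of every group. That of 5 neutrophil markers, 3 of them lower in KO sham, was -0.997, -0.841 and 1.05 in WT sham, -2.74 to -1.46 in KO sham, 2.19 to 2.67 in WT IRI and -0.56 to 0.60 in KO IRI, and one of them, Cxcr2, was well above background on 1 WT sham array and on 0 KO sham arrays. In WT IRI against WT sham limma called 4 of these 5 markers higher and 1 lower. The 5 tubule injury markers, 2 of them lower in KO sham, had -1.29 to -0.29 in WT sham, -2.74 to -2.39 in KO sham, 2.56 to 2.67 in WT IRI and -0.08 to 2.03 in KO IRI. WT sham replicate 3, the WT sham kidney with the lowest Dbp and Ciart, thus also had the lowest T and NK cell value and the highest neutrophil and injury values of its group. The 6 proximal tubule markers had 0.02 to 0.24 in WT sham, 0.50 to 0.70 in KO sham, -0.68 to -0.28 in WT IRI and -0.36 to -0.02 in KO IRI. After IRI limma called 4 of them lower in WT (5.90% of all genes) and 4 in KO (4.05%). Each of the 6 read higher in KO sham than in WT sham without overlap (30.6% of all genes), with 1 called (5.12%). Of 5 thick limb and distal tubule markers limma called 2 lower after IRI in WT and 2 in KO. Of 5 collecting duct markers it called 2 lower in WT and 1 in KO, beside the same shares. In WT IRI against WT sham it called 3 of 5 macrophage markers lower and 1 higher, where 6.08% of all genes were called higher. It also called 3 of 3 erythroid markers and 2 of 4 adipocyte markers higher there. The calls in KO IRI against KO sham were fewer, with 2 of 5 neutrophil, 1 of 4 adipocyte and 0 of 3 erythroid markers higher. Of 5 macrophage markers 1 was called higher and 1 lower there. Over all genes 546 were called higher in that comparison and 4.05% lower. In KO sham against WT sham it called 2 of 5 macrophage markers lower (3.73%). The part of these cells, of injury and of the hour of collection in the clock gene levels was not tested, and the part of the slide cannot be told apart from genotype.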

How the data were processed

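Kidney RNA of 12 mice was measured on one-colour Agilent arrays. Per the file headers, the deposited intensity values are processed signals of Feature Extraction 10.7.1.1, background-subtracted. The authors' deposited log2 table of normalized values was used only as an alternative. The submitters' processing notes name limma without a version.

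Here log2 processed signal minus the 75th percentile of each array was used. Probes well above background on at least 3 of 12 arrays were kept (39450 of 56605), and a gene is its brightest kept probe. The RefSeq table (GRCm38.p6) named 32994 probes by accession, and 23611 kept the name in the file. Probe positions are those of the files, on NCBI37 (mm9). limma 3.58.1 in R 4.3.3 was fitted to all 12 arrays with 1 coefficient per group and 8 residual degrees of freedom. Tests are two-sided and p-values were Benjamini-Hochberg adjusted over 25947 genes, with a threshold of 0.05; errors are SE and 95% intervals are unadjusted. The fit was tested on simulated data. Tables and figures were made with Python 3.11.15, pandas 2.3.3, numpy 2.4.6, scipy 1.17.1 and matplotlib 3.10.9. The small number of arrays limits the precision, and nothing in the labels says how the 3 kidneys of a group were drawn beyond their being separate samples.

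Genes named are the 10 clock genes, a set of further clock genes (Nr1d2, Tef, Hlf, Nfil3, Bhlhe40, Bhlhe41, Ciart and Usp2, with 1 more that is not reported here), any other of the 19 listed that passed, at most 4 per comparison of 14 kidney genes that passed, Cirbp, Rbm3, the 5 genes at each end of the correlation with Arntl and Dbp, Jaml, Havcr1 and Lcn2. The members and lists were chosen with earlier results of these data known. Alternatives were quantile normalization, normexp background (offset 50), the authors' table, other filters on dim probes, the mean of a gene's probes, only the arrays compared (for IRI against sham this is within a slide), a replicate block, array weights, each array left out, and 1 chosen after seeing the data, in which WT sham replicate 3 and WT IRI replicate 1 were left out together.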

Additional observations from a re-analysis of the deposited data

How the results depend on the processing

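For WT IRI against WT sham the count of clock genes called went from 0 to 1 with the mean of probes (Per2) and 4 with array weights (Clock, Per2, Per3 and Dbp), and ran from 0 to 1 with single arrays left out (Per3 without WT IRI replicate 2). For KO IRI against KO sham it was 1 with quantile normalization, the authors' table or a filter of 6 arrays (Arntl each), 2 with the mean of probes (Arntl and Per3), 3 with only the arrays compared, 4 with array weights (Arntl, Per2, Per3 and Dbp), 3 without WT sham replicate 3 and WT IRI replicate 1, and 0 to 2 with single arrays left out. For KO sham against WT sham it was 1 with normexp (Per1), 2 with the mean of probes (Arntl and Per3), 2 with only the arrays compared (Per1 and Per3), 4 with array weights (Arntl, Per1, Per3 and Cry2), 1 without both arrays (Arntl), and 0 to 3 with single arrays left out. With array weights 34.4%, 22.2% and 37.3% of all genes were called in these 3 comparisons. The fit to only the arrays compared called 2442 genes in KO IRI against KO sham and 4042 in KO sham against WT sham, beside 1598 and 2297 in the fit used. Without both arrays these were 3738 and 2919, and with the mean of probes 1461 and 2225. Normexp called 2104 between the sham groups. Without WT IRI replicate 2, 4675 genes were called in WT IRI against WT sham. The count of clock genes was 0 for KO IRI against WT IRI and the interaction in every setting run.

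Some signs turned. Per1 in WT IRI against WT sham was -0.015 with quantile normalization, -0.012 with the authors' table, -0.43 with the mean of probes, -0.21 with array weights, -0.26 without both arrays and -0.42 to 0.29 with single arrays left out. In the same comparison Cry2 was -0.12 with array weights, -0.25 without both arrays and -0.12 to 0.48 with single arrays left out, and Nr1d1 was -0.50, -0.48 and -0.29 to 0.63. For KO sham against WT sham Per2 was -0.042 with quantile normalization, -0.043 with the authors' table, -0.015 with normexp, and -0.16 without both arrays or at the lowest and 0.33 at the highest with single arrays left out, and Cry1 was 0.094 with normexp, 0.20 with array weights and -0.69 to 0.47 with single arrays left out. For KO IRI against WT IRI the mean of probes gave -0.090 for Clock and 0.41 for Per1, array weights gave 0.058 for Arntl, 0.20 for Cry2 and 0.028 for Nr1d1, and without both arrays Arntl was 0.20, Cry1 0.14 and Cry2 0.36. With single arrays left out those ran from -0.81 to 0.20, -0.57 to 0.14 and -0.24 to 0.36. In the interaction Cry1 was -0.19 with normexp, -0.0027 with the mean of probes, -0.38 with array weights and -0.65 to 0.51 with single arrays left out, and Clock was -0.21 with the mean of probes, -0.18 with array weights, -0.015 without both arrays and 0.021 to 0.24 with single arrays left out. Per2 ran there from -0.11 to 0.37, Per3 from -0.43 to 0.16 and Dbp from -0.95 to 0.35 with single arrays left out. The causes were not tested.

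Over all genes the count called ran from 417 to 8922 (WT IRI against WT sham, 3109 in the fit used), 454 to 5756 (KO IRI against KO sham, 1598), 649 to 9669 (KO sham against WT sham, 2297), 35 to 2034 (KO IRI against WT IRI, 501) and 4 to 1353 (interaction, 18). Quantile normalization split the calls as 805 higher and 819 lower in KO IRI against KO sham, from 546 and 1052, and as 828 and 1093 in KO sham against WT sham, from 1329 and 968. Same-numbered arrays correlated at -0.267 to 0.151 in their deviations. With 3 arrays in a group these values cannot settle whether the numbers pair kidneys. With the replicate number as a block 0 clock genes were called in each comparison, and over all genes 2484, 1153, 1782, 279 and 5. Signal near background limits Npas2, Cry1 in KO sham replicate 2 and the dim probes of Arntl, Clock and Per1.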
